A study of Rattus norvegicus with 6 samples.

Results

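The Hox genes were read on 6 two-colour rat oligonucleotide arrays of neonatal kidney RNA from the Han:SPRD strain, whose Cy mutation causes polycystic kidney disease. Members were the non-control probes whose gene name in the scanner files, without the endings _predicted or _mapped, is Hox followed by a, b, c or d and a number: 24 genes of the 35561 gene names on the array, read by 29 of its 41012 non-control probes, with a probe of 17 of them passing the filter given below. Every array carried pooled renal RNA from age-matched +/+ rats in Cy3, the reference, and in Cy5 the pool that names the sample, labelled +/+, Cy/+ (heterozygous) or Cy/Cy (homozygous), with 1 array of each from rats 3 days old and 1 from rats 7 days old. Pooled animals stand behind every value, the number of rats per pool is not given in the sources used here, and no array had its dyes exchanged, so a dye effect and a difference between pools cannot be told apart. The arrays of an age shared a slide, so age and slide cannot be told apart either, and the 2 ages served as the repeats of a genotype (n = 2 arrays). The p-values then measure the spread between these arrays only, which may be technical.

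Hox genes encode transcription factors that bind DNA through a homeodomain, a fold of helices whose last helix lies in the DNA groove. They sit in clusters A, B, C and D on separate chromosomes, and the order of genes along a cluster follows the order of their expression from head to tail: low-numbered genes act from the hindbrain downwards and high-numbered genes in the lower trunk, limbs and tail. Genes of equal number in different clusters are paralogues. The permanent kidney arises from posterior intermediate mesoderm and the ureteric bud, and the Hox11 paralogues are required for it to form; no probe met the naming rule for a Hox11 gene.

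Kidney markers were present in the reference, where all 10 tubule markers were well above background on all 6 arrays, but the Cy5 pools labelled +/+ went against their label. On those 2 arrays the kidney tubule markers (among them Umod, Slc12a1 and Lrp2) had a median log2 ratio, Cy5 over Cy3, of -4.01 at both ages, and liver markers had medians of 6.02 and 5.74. Muscle, heart, lung, brain, intestine, pancreas, skin and bone lists all had medians above 2.7 on both. Those pools are therefore called the Cy5 pools labelled +/+ below, and a ratio under 0 there means a higher signal in the kidney reference. Log2 ratios had a standard deviation over all kept probes of 1.1 and 0.94 on these arrays, 0.32 and 0.24 on the Cy/+ arrays, and 0.17 and 0.16 on the Cy/Cy arrays (3 and 7 days in each case).

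The probe sequences show which piece of each gene the array reads. The 11 that matched a searched pattern of homeodomain residues are given 5′ to 3′ with their coordinates in rat build rn3. After translation of the 29 probes, 8 matched at the start of homeodomain helix 2 and 3 others at the end of helix 3, the recognition helix. The patterns miss codons for other residues, so more of the 29 may lie in the homeodomain. Capitals mark the matched codons, at the end of helix 3 in Hoxb2, Hoxd3 and Hoxa9 probe 1 and at the start of helix 2 in the rest. Hoxa9 probe 1 runs past the stop codon by 6 bases, and all the sequences are exonic and coding up to there.

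Hoxb2, chr10:85101106-85101165 (+ strand): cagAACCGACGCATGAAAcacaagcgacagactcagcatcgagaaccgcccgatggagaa
Hoxd3, chr3:57257454-57257513 (+ strand): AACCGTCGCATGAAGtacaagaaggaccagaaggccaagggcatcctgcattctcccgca
Hoxc4, chr7:141877395-141877454 (+ strand): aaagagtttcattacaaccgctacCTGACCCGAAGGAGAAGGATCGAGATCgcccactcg
Hoxa5 probe 2, chr4:80780130-80780189 (- strand): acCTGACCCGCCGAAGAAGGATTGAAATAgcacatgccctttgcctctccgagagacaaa
Hoxc6 probe 2, chr7:141853223-141853282 (+ strand): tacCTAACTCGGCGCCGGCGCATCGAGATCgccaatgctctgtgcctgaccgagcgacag
Hoxc6 probe 1, chr7:141826274-141826333 (+ strand): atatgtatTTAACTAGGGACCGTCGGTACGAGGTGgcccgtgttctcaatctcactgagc
Hoxb8, chr10:85029369-85029428 (+ strand): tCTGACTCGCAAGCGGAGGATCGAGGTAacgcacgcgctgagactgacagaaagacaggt
Hoxb9, chr10:85019820-85019879 (+ strand): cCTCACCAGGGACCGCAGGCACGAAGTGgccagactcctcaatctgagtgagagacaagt
Hoxa9 probe 1, chr4:80802826-80802885 (- strand): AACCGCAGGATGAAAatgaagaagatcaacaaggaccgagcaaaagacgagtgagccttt
Hoxc10, chr7:141813035-141813094 (+ strand): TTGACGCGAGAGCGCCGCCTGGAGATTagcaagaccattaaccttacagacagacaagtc
Hoxc12, chr7:141781320-141781379 (+ strand): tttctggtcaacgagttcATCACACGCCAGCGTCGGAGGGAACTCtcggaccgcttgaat

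The longest run of bases shared by probes of different Hox genes was 12, between Hoxc4 and Hoxc6, over 401 pairs of probes. Probes were compared with each other only, so binding of a probe to the transcript of another Hox gene was not tested. Where a gene had a pair of probes they are numbered 1 and 2 by their identifiers. Of the 29 probes, 1 lay out of paralogue order along its cluster. Hoxc6 probe 1 (A_42_P692008) lay 26.9 kb from Hoxc6 probe 2 (A_44_P538576) and on the far side of Hoxc8, 7.7 kb beyond the Hoxc8 probe and 13.2 kb short of the Hoxc10 probe. RefSeq (GRCr8) places Hoxc9 between Hoxc8 and Hoxc10. Aligned on the helix 2 codons, Hoxc6 probe 1 encoded the same residue as Hoxb9 at 14 of 17 codons and as Hoxc6 probe 2 at 12 of 18. Both probes keep the name in the files here, and the ratios of probe 1 are read with that in mind.

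Most of the Hox genes measured were detected in newborn kidney. In each of the 6 Cy3 references, 22 or 23 of the 29 probes were well above background by the scanner software's flag, and 22 or 23 were in the Cy5 channel of each mutant array. In the Cy5 pools labelled +/+ the number was 16 at 3 days and 17 at 7 days. Hoxb13, Hoxc12, Hoxd12 and Hoxd13, all at the tail end of their clusters, and Hoxb1 at the head end of its own were not well above background in any channel. Hoxc5 was so on the 7-day array labelled +/+ only. The 22 probes that passed the filter on dim probes (that flag set in Cy3 or in Cy5 on 2 or more of the arrays), of 30934 such probes in all, enter the tests below. Hoxb3 probe 1, Hoxb9, Hoxd1 probe 1, Hoxd3 and Hoxd4 were well above background in the reference of both arrays labelled +/+ and in the Cy5 pool of neither; 0.682% of all kept probes had that pattern. No Hox spot was saturated.

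**Figure D1:**
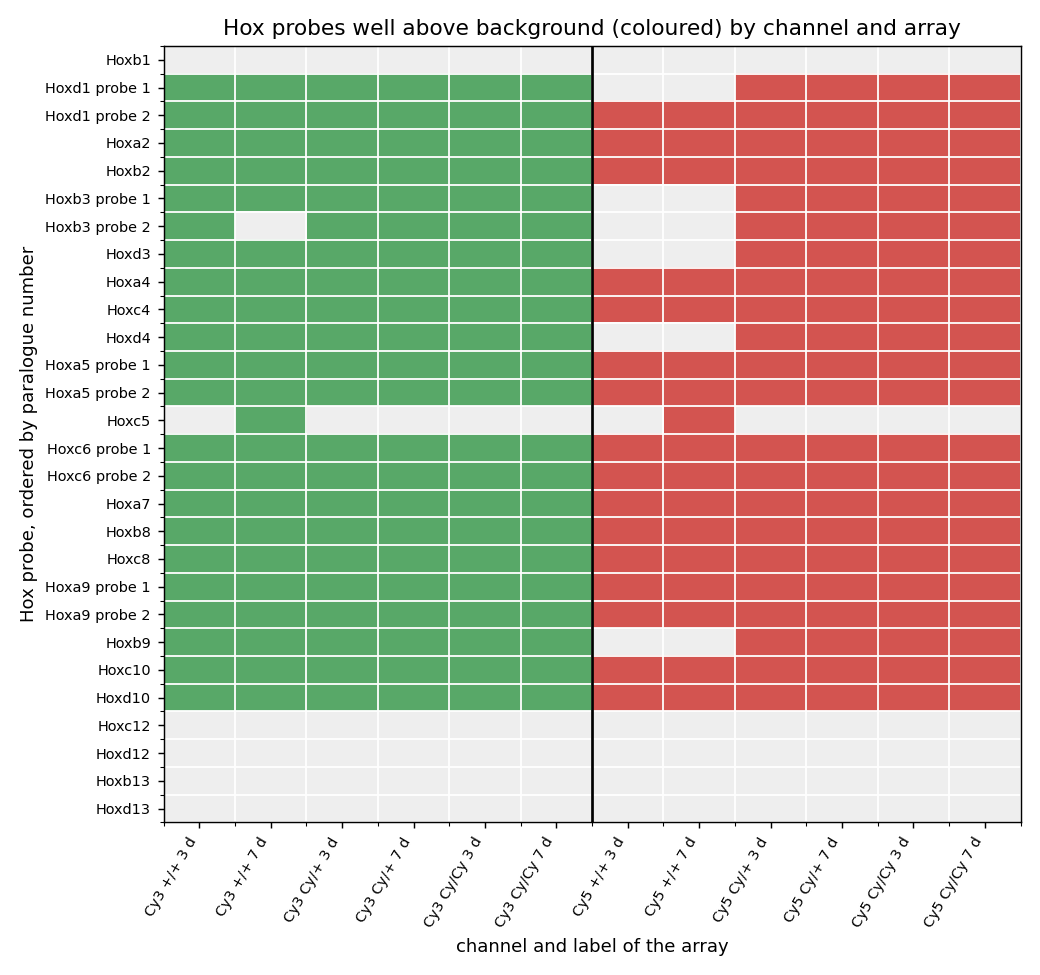
Hox probes reported here (rows, by paralogue number) that were well above background in the Cy3 reference (green) and the Cy5 pool (red) of each array (columns); grey cells were not. The grey gaps in the first 2 red columns are the probes seen in kidney reference RNA but not in the Cy5 pools labelled +/+, and the rows at the bottom are the unseen Hox12 and Hox13 probes.

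Kidney reference RNA held more signal than the Cy5 pools labelled +/+ for nearly all Hox genes. In a limma fit with Benjamini-Hochberg adjustment over 30896 probes, 18 of the 22 Hox probes were lower in the Cy5 pools and 2 were higher, at an adjusted p under 0.05; over all probes 45% were called, 18.4% lower and 26.6% higher. Of the 18, Hoxb3 probe 1, Hoxb9, Hoxd1 probe 1, Hoxd3 and Hoxd4 passed the filter only through channels of kidney RNA. Such probes could hardly be called higher in the Cy5 pools, so their direction adds nothing to the count. With them included, the Hox median was -0.96 on the log2 scale, beside 0.01 over all probes tested. The ratio on both arrays lay below all 4 mutant ratios for 20 Hox probes, against 24.4% of all kept probes. For the other 2 it lay above them, against 30.1%. Among the 20 are the probes just named and Hoxb3 probe 2, which also passed the filter only through channels of kidney RNA. Their place adds nothing to this count, nor to the 20 below 0 that follow. The split of all calls depended on the scaling: 59.1% of them were higher here, 37.5% with the scanner software's own ratio and 75.1% with median centring, while the Hox probes stood at 20 below 0 and 2 above under each. The median of all probes moved to -0.23 and 0.18 under these, and the Hox median to -2.28 and -0.91.

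As a class the posterior genes, paralogue numbers 9 and up, had the lowest median ratio on these arrays. Hoxa9, a regulator of blood progenitors and of the posterior trunk, had by probe 2 ratios of -3.30 at 3 days and -2.70 at 7 days, and on the mutant arrays between -0.65 and -0.06. The mean was -2.997 ± 0.167 (n = 2 arrays), a signal 7.98-fold higher in the reference (adjusted p = 4.8e-05). That standard error came from the limma fit of all 6 arrays, so the mutant arrays share in it. With the 2 arrays labelled +/+ fitted alone it was 0.201. Each ± value in this report is such a limma standard error, from all arrays of its fit, and not the spread of 2 ratios alone. Hoxa9 probe 1, in the homeodomain, gave -2.23 and -1.61, with a mean of -1.92 ± 0.15 (adjusted p = 0.000184). Both probes set the reference above the Cy5 pool at both ages, and their sizes differed.

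Hoxc10, a gene of lumbar spinal cord and hindlimb, had ratios of -2.45 at 3 days and -1.83 at 7 days, a mean of -2.14 ± 0.16 (4.42-fold, adjusted p = 0.000143). Its 4 mutant ratios ran from -0.48 to -0.04 and did not overlap these. Hoxd10, which patterns lumbar motor neurons with Hoxc10, had -1.59 and -1.19, a mean of -1.39 ± 0.11 (adjusted p = 0.000213), with all 4 mutant ratios between 0.03 and 0.12. Hoxb9 had -0.79 and -0.76, and since its Cy5 signal was not well above background on either array, its reference was at least 1.71-fold higher (adjusted p = 0.000646). Such a bound sets the reference's mean against the lowest signal among probes well above background, or the dim probe's own if higher. For Hoxb9, and for Hoxb3 probe 1 and Hoxd3 below, the bound equals the measured fold. The p-value beside a bound tests the measured ratio against 0 and not the bound.

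Among the probes named for central genes, numbers 4 to 8, Hoxc6 probe 1, which lies where RefSeq places Hoxc9, had the lowest ratios. These were -2.27 and -2.06 (mean -2.17 ± 0.13, 4.49-fold, adjusted p = 6.29e-05) for that probe. It and Hoxa9 probe 2 were the 2 Hox probes at least 4-fold below the reference on both arrays, as were 0.65% of all kept probes. Hoxc6 probe 2, which lies where Hoxc6 lies, had -0.99 on both arrays, a 1.98-fold difference (adjusted p = 0.000447). Hoxb8 had -1.84 and -1.60 (mean -1.72 ± 0.11, adjusted p = 7.4e-05). Hoxa5, needed for lung and airway formation, gave by probe 1 -1.43 and -1.30 and by probe 2 -1.41 and -1.18, means of -1.37 ± 0.09 and -1.29 ± 0.09. The pair of Hoxa5 probes, 1 of them in the homeodomain, thus differed by less than their standard errors. Hoxc4 had -1.14 and -0.80, and Hoxa7 -1.27 and -0.59, the widest gap between ages of any Hox probe. Hoxd4 was at least 1.49-fold higher in the reference (adjusted p = 0.0171); without the 3-day array labelled +/+ it had -0.36 and lost its call (0.0829). Hoxc8, at -0.39 and -0.35, did not pass (adjusted p = 0.0559).

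The anterior genes, numbers 1 to 3, were divided. Hoxb2, which acts in the hindbrain segment that gives rise to the facial nerve, had -1.42 and -1.62, a mean of -1.52 ± 0.09 (2.86-fold, adjusted p = 5.5e-05), with its mutant ratios between -0.07 and 0.05. Hoxd1 was higher in the reference by both probes, by probe 2 at -1.04 and -0.85 (adjusted p = 0.000873) and by probe 1 at least 1.37-fold (adjusted p = 0.0118). Hoxb3 probe 1 was at least 1.81-fold higher in the reference (adjusted p = 0.00153) and Hoxd3 at least 1.29-fold (adjusted p = 0.0162). Without the 3-day array labelled +/+ Hoxd3 had -0.29 and lost its call (adjusted p = 0.0663). Hoxb3 probe 2, at -0.39 and -0.14, did not pass (adjusted p = 0.0694), and did without the 7-day array (0.022).

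Hoxa2 and Hoxa4 went the other way. Hoxa2, which sets the identity of the second branchial arch, had ratios of 1.03 at 3 days and 0.69 at 7 days and between -0.04 and 0.24 on the mutant arrays, a mean of 0.86 ± 0.12 (1.82-fold higher in the Cy5 pools, adjusted p = 0.00207). Hoxa4, a gene of the neck vertebrae, had 0.76 and 0.83 and between -0.11 and 0.14 on the mutant arrays (mean 0.79 ± 0.09, 1.73-fold, adjusted p = 0.000897). Both were well above background in all 12 channel readings, so their kidney signal was also detected.

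**Figure D2:**
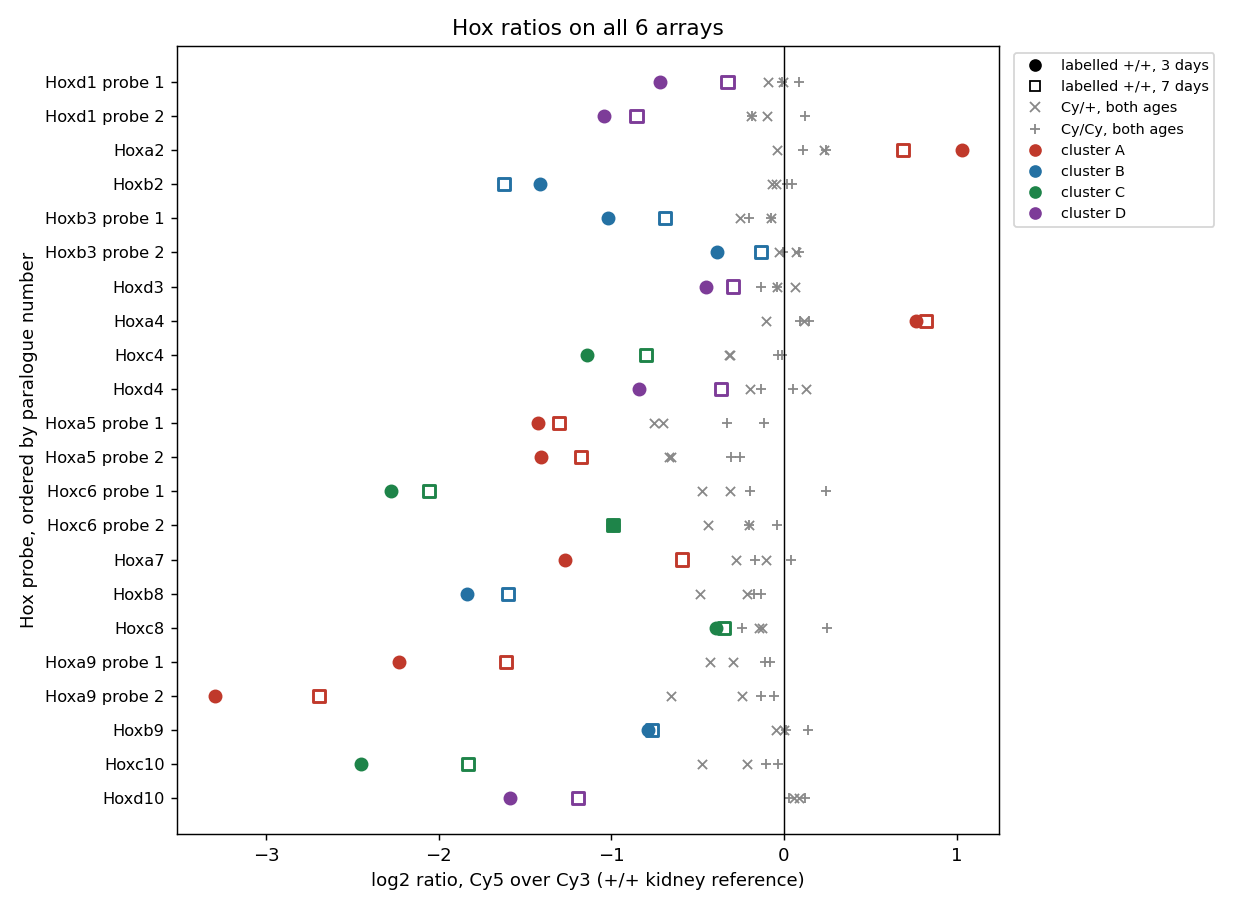
Log2 ratio of Cy5 over the Cy3 kidney reference for the 22 kept Hox probes, ordered by paralogue number from top to bottom. Coloured points are the arrays labelled +/+ at 3 days (filled) and 7 days (open), by cluster, and grey marks are the 4 mutant arrays; all coloured points but those of Hoxa2 and Hoxa4 lie to the left of the grey marks of the same probe.

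Within cluster A, on chromosome 4, the ratio changed over a short stretch of the chromosome. Hoxa2 and Hoxa4 lie within 26.8 kb and were both above 0. From Hoxa5, at 39.6 kb from Hoxa2, to Hoxa9, at 62.6 kb, all 5 probes were below -0.5 on both arrays. In cluster C the lowest ratios were at Hoxc10 and Hoxc6 probe 1, 64.4 and 51.1 kb from Hoxc4, and in cluster D at Hoxd10, 72.7 kb from Hoxd1. Cluster B did not share that order in the processing used here: Hoxb8 and Hoxb2, near opposite ends, had its lowest ratios. Hoxb9, beyond Hoxb8, was not well above background in Cy5, so the size of its ratio is a bound. By the scanner software's ratio Hoxb9 was the lowest of cluster B (-3.75 and -4.19), and Hoxb2 had -1.92 and -2.18. That ratio also put Hoxd1 probe 1 (-3.39) below Hoxd10 (-3.36) at 3 days.

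Over all 22 probes, Spearman's correlation of the ratio with paralogue number was -0.57 at 3 days and -0.53 at 7 days. It was -0.87 and -0.84 over the 7 probes of cluster A and -0.36 and -0.41 over the other 15. The probes share the same 2 arrays, and these values describe them only. By its name, Hoxc6 probe 1 counts as number 6 in these correlations and as central in the medians that follow. Its place near Hoxc9 would make it posterior, and that reading was not tried. By class, the median at 3 days was -0.72 over the 7 anterior probes, -1.21 over the 10 central and -2.23 over the 5 posterior, and at 7 days -0.33, -0.89 and -1.61. With the scanner software's own ratio the correlation with paralogue number was -0.385 and -0.488. The ratio also moved with the brightness of the probe, with a Spearman correlation of -0.574 and -0.569 here and of 0.281 and 0.109 by the software's ratio (22 probes), and the part of brightness in the order of the ratios was not tested. By the software's ratio the posterior median was still the lowest (-3.72 and -3.09), but the anterior one (-2.43 and -2.18) lay below the central (-1.98 and -1.52). The processing used here adds an offset of 50 to each signal, which pulls the ratios of dim probes towards 0: Hoxb9 had -3.75 and -4.19 by the software's ratio and Hoxd10 -3.36 and -3.39. The size of the ratio of a dim probe and the order of probes within a class therefore rest on the processing, and the sign did not change.

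**Figure D3:**
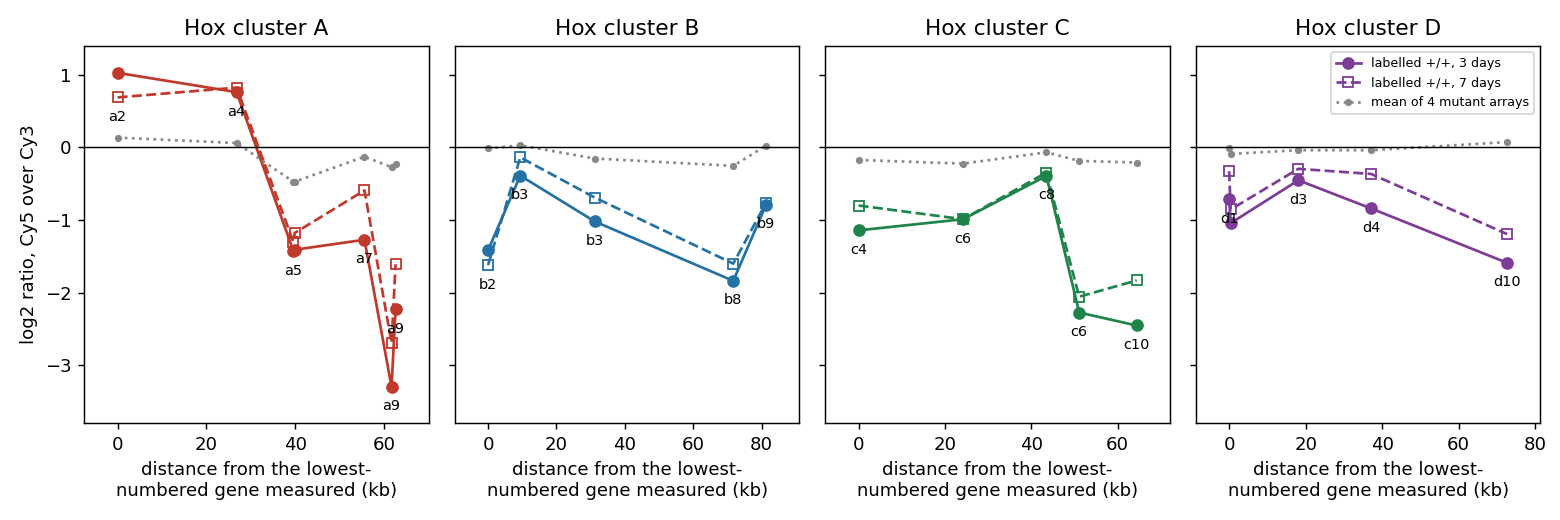
Log2 ratio against distance in kb from the lowest-numbered Hox gene kept in each cluster, with arrays labelled +/+ at 3 days (filled, solid) and 7 days (open, dashed) and the mean of the 4 mutant arrays (grey). Cluster A starts above 0 and ends with Hoxa9, and cluster D has its lowest ratios at its far end, Hoxd10. The lowest of cluster C are Hoxc10 at 3 days and Hoxc6 probe 1 at 7 days. Cluster B has its lowest near both ends as processed here, and at Hoxb9 by the scanner software's ratio, which is not drawn.

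The Hox ratios were farther from 0 at 3 than at 7 days for 20 of 22 probes, against 59.1% of all kept probes, the exceptions being Hoxa4 and Hoxb2. Brain markers also stood higher at 3 days (median 4.36, beside 2.78), as did lung markers (5.02 and 3.91), whereas kidney tubule markers had the same median at both ages. The makeup of the Cy5 pools was not measured, and its part in the Hox ratios was not tested.

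Genes that work with Hox proteins or around the Hox clusters were divided on the same 2 arrays, where 18.4% of all probes were called lower and 26.6% higher. Of the TALE cofactors, which bind DNA beside Hox proteins, 3 of 7 tested were lower in the Cy5 pools labelled +/+ (among them Meis2 -1.04 and Tgif1 -0.49) and 2 were higher (Meis3 0.69, Pknox1 0.51). Of the chromatin regulators of Hox genes, 6 of 14 were lower and none was higher, with a list median of -0.28; Kdm6b and Cbx7, a histone demethylase and a Polycomb subunit, were lowest at -0.76 each. Of 4 Hox-linked and ParaHox genes, 3 were higher, among them the intestinal regulator Cdx2 at 4.27 ± 0.08 and Meox2 at 3.69 ± 0.19.

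Of 15 genes that act with the Hox11 paralogues in kidney formation, 7 were lower and 3 higher, to be read against the same 18.4% and 26.6%, and the list median was -0.31. Pax8 (-3.29 ± 0.09), Wt1 (-2.05 ± 0.09), Sall1 (-1.95 ± 0.10) and Lhx1 (-1.92 ± 0.17), all transcription factors of the nephron lineage, were the lowest. Ret, the receptor of the ureteric bud, was higher in the Cy5 pools, at 4.19 and 1.51 (3 and 7 days). Of 16 position genes of the head and limb outside the clusters, 10 were higher, among them the forebrain gene Otx2 (4.34 ± 0.40), and 4 were lower, led by Emx2 (-3.07 ± 0.10), which is also needed for kidney and genital tract. The Hox median of -0.96 lay between those of the kidney stroma and mesangium list (-1.52) and the ureteric and collecting duct list (-0.48), and the tubule list was far lower (-4.17).

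**Figure D4:**
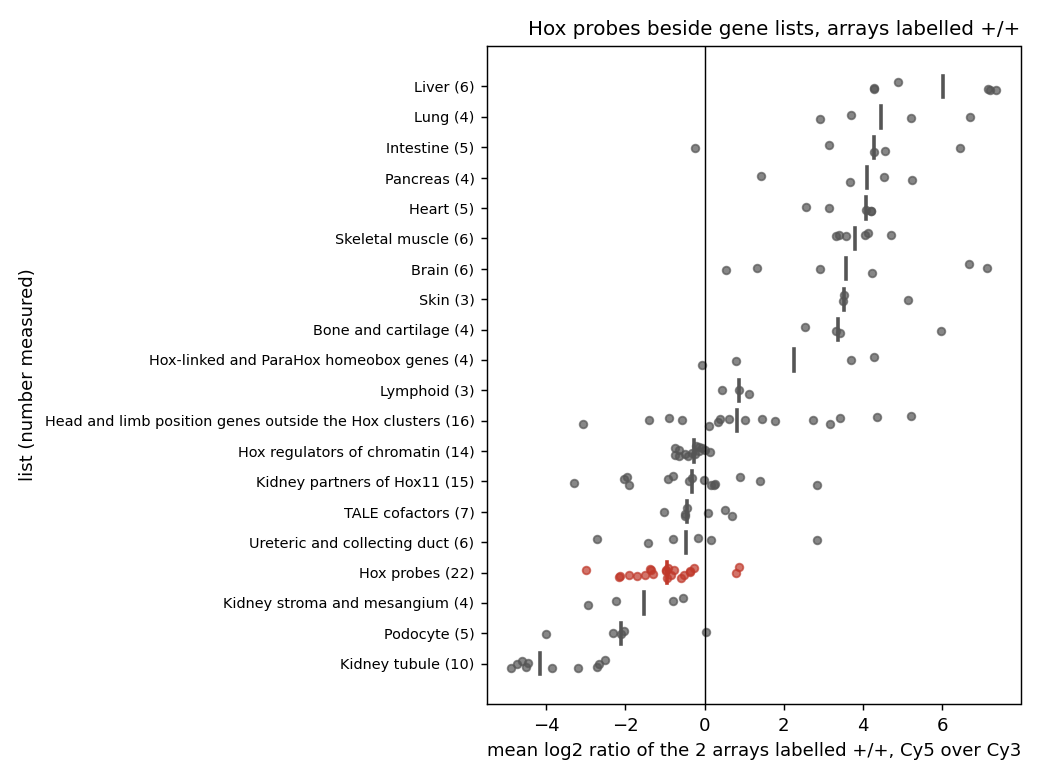
Mean log2 ratio of the 2 arrays labelled +/+ for the 22 Hox probes (red) and for each tested gene of the lists (grey), with a bar at each median; the number measured stands in brackets. Hox probes lie mostly left of 0, on the side of the kidney lists, and Hoxa2 and Hoxa4 are the 2 red points right of 0.

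In the Cy/+ pools, Hoxa5 was lower than in the +/+ reference at both ages. Hoxa5 probe 1 had ratios of -0.70 at 3 days and -0.75 at 7 days, a mean of -0.73 ± 0.08 (1.65-fold lower, adjusted p = 0.0116), and probe 2 had -0.66 at both, a mean of -0.66 ± 0.07 (adjusted p = 0.0106). Hoxa9 probe 1, at -0.43 and -0.30 (mean -0.36 ± 0.08, adjusted p = 0.0402), and Hoxc4, at -0.31 and -0.32 (mean -0.32 ± 0.07, adjusted p = 0.0458), were also called. An unadjusted p under 0.05 was reached by 9 Hox probes, and by 28.9% of all probes. These 4 of 22 probes were lower and none was higher; over all 30905 probes 7.85% were called, 3.27% lower and 4.58% higher. Hoxa9 probe 2 had -0.65 and -0.24 and missed the threshold (adjusted p = 0.0535), as did Hoxb8 (-0.21 and -0.49, 0.0599) and Hoxc10 (-0.48 and -0.21, 0.0617). With age and slide as a term, which pairs the arrays of a slide, these 3 passed as well (adjusted p = 0.0299, 0.0314 and 0.031), making 7 Hox probes lower among 4864 calls.

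The Hox median was -0.15, beside 0.00 over all probes, and 15 of 22 were below 0 at both ages, against 33.8% of kept probes. The 7 anterior probes had medians of -0.04 at 3 days and -0.07 at 7 days, with ranges from -0.25 to 0.07 and from -0.10 to 0.23, and none was called. On the 3-day Cy/+ array pancreas markers had a median ratio of 3.17 and skin markers 1.32 (4 and 3 genes), against 0.00 and 0.04 on the 7-day array, and kidney tubule markers -0.41 and -0.12. Without the 3-day array, 2 Hox probes were called, both of Hoxa5, at -0.75 and -0.66, while Hoxa9 probe 1 (adjusted p = 0.19) and Hoxc4 (0.161) lost their calls. Without the 7-day array 3214 probes were called, 5 of them Hox, with Hoxa9 probe 2 and Hoxc10 gained and Hoxc4 lost (adjusted p = 0.0111, 0.032 and 0.103). With the scanner software's ratio, in which no probe at all passed, Hoxa5 had -0.71 and -0.65 (adjusted p = 0.121 for each). With median centring, which moves the median of all probes to 0.19, Hoxa5 had -0.10 and -0.19, no Hox probe was called lower and 2 were called higher. With the spread shared over all 6 arrays Hoxa5 also missed the threshold (adjusted p = 0.0723 and 0.0796). Of all calls, 58.3% were higher here and 80.2% under that centring. Both Hoxa5 probes were below the level of probes of like brightness on both Cy/+ arrays. The call of Hoxa5 rested on the normalization and on which arrays shared the spread. A dye effect of these probes was not told apart from a fall. Between Cy/Cy and Cy/+, which share the dye, Hoxa5 was not called (limma adjusted p = 0.642 for probe 1 and 0.751 for probe 2). Of the companion lists, the chromatin regulators Kdm6b (-0.67) and Kmt2a (-0.60), a demethylase and a methyltransferase of histone H3, were lower in Cy/+, and Egr2, a hindbrain gene, was higher (0.34); no TALE cofactor, Hox-linked gene or kidney partner of Hox11 was called.

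**Figure D5:**
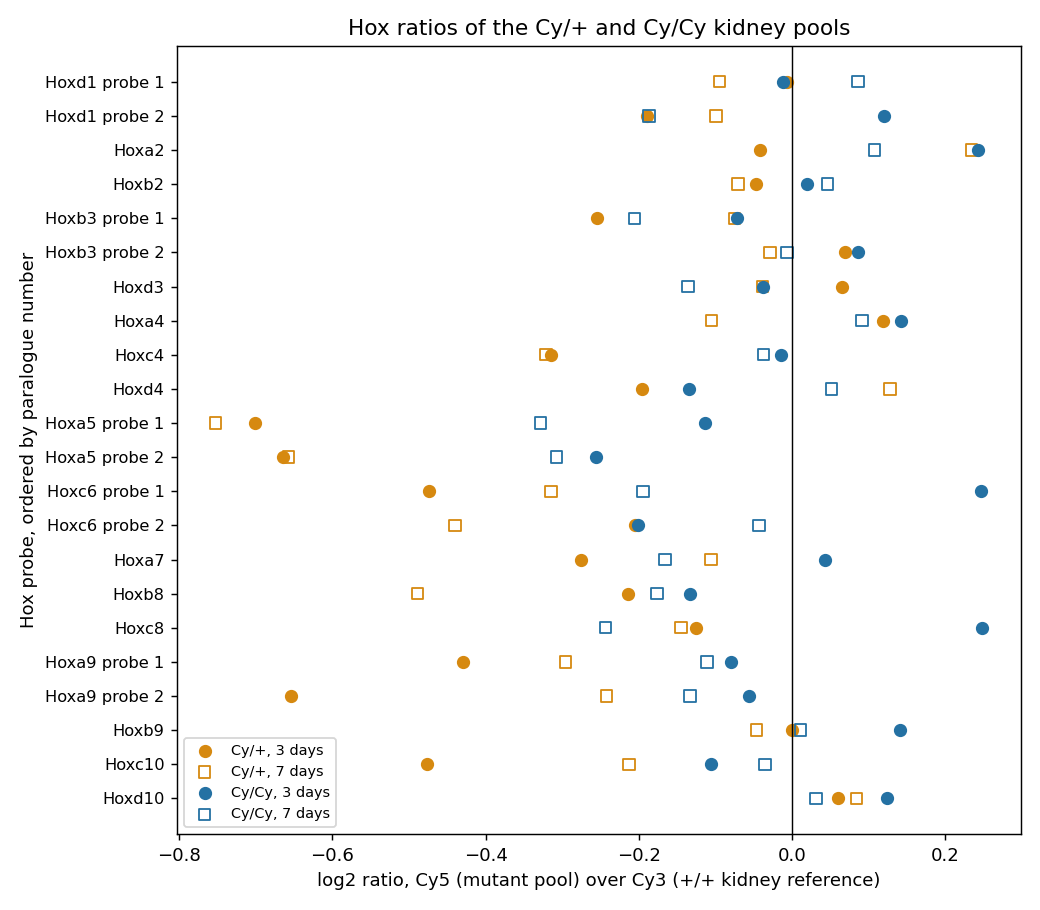
Log2 ratio of the Cy/+ (orange) and Cy/Cy (blue) pools over the Cy3 +/+ kidney reference at 3 days (filled) and 7 days (open) for each Hox probe, by paralogue number. Both Hoxa5 probes have the lowest Cy/+ ratios, from -0.75 to -0.66, and no ratio of either mutant passes 2-fold.

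In the Cy/Cy pools no Hox probe was called. By limma no probe at all passed (0% of 30905; 8.66% at an unadjusted p under 0.05), nor did any by the scanner software's ratio, and 2 Hox probes had an unadjusted p under 0.05, both of Hoxa5. Hoxa5 probe 1 had -0.11 and -0.33 and probe 2 -0.26 and -0.31, with means of -0.22 ± 0.08 and -0.28 ± 0.07 (adjusted p = 0.545 and 0.472). Under median centring, where the median of all probes was 0.17, these turned to 0.31 and 0.11. The Hox median was -0.04, and 10 of 22 were below 0 at both ages, against 27.3% of kept probes. The posterior genes were close to the reference: Hoxa9 probe 2 had -0.06 and -0.13, Hoxc10 -0.11 and -0.04, and Hoxd10 0.12 and 0.03.

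Set against each other, Cy/Cy exceeded Cy/+ in 20 of 22 Hox means, with a median difference of 0.12, and 13 were higher in Cy/Cy at both ages, against 27.3% of kept probes. No difference passed (0% of 30905 probes called by limma; 6.11% at an unadjusted p under 0.05, and 5 of the 22 Hox probes). The widest were Hoxa5 probe 1, at 0.51 ± 0.12 (adjusted p = 0.642), Hoxc6 probe 1, at 0.42 ± 0.16, and Hoxa5 probe 2, at 0.38 ± 0.10. The 2 genotypes were not shown to differ in any Hox gene, and the reference pools of both comparisons are of the same kind.

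Between 3 and 7 days no Hox probe was called in the kidney pools (reference, Cy/+ and Cy/Cy), where 8% of 30896 probes were (3.45% lower and 4.55% higher at 7 days). The levels were normalized log2 signals, and 3 Hox probes had an unadjusted p under 0.05, as did 29.4% of all probes. Hoxa7 had 9.42 in the reference, 9.19 in Cy/+ and 9.63 in Cy/Cy at 3 days and 8.97, 8.99 and 8.88 at 7 days, lower at 7 days in every pool, by 0.47 ± 0.11 (adjusted p = 0.0622). Hoxc6 probe 2 was 0.32 ± 0.09 higher at 7 days (adjusted p = 0.0899), and Hoxc10 0.21 ± 0.08 higher (adjusted p = 0.168). All 3 pools were lower at 7 days for 6 Hox probes and higher for 4, against 24% and 27.7% of all kept probes. Without the Cy/+ pool, whose 3-day array carried the pancreas and skin signal, 4199 of all probes were called. Hoxa7 was then called lower, at -0.60 (adjusted p = 0.0165), and Hoxc6 probe 2 higher, by 0.42 (adjusted p = 0.029). Over the 7 alternatives Hoxa7 ran from -0.60 to -0.32 and Hoxc6 probe 2 from 0.22 to 0.43. No other of these alternatives called either probe. Among the kidney partners of Hox11, Wnt11 was lower at 7 days (-0.71) and Ret (2.01), Gfra1 (1.34), Pax2 (0.49) and Pax8 (0.43) were higher; Kdm6b (-0.38) of the chromatin regulators was lower.

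The promoters of the cluster A genes at either end of the order are shown because those genes moved in opposite directions. RefSeq (GRCr8) held promoters for 12 of the 24 Hox genes, each read over the 250 bases before the start site, on both strands. Capitals mark TGATTNAT, a motif bound by Hox with Pbx, in Hoxa2, and TTTATG, a Cdx motif, and TATAAA, the TATA box, in Hoxa9; the marked motifs did not overlap. Of the 12 promoters, 1 held TGATTNAT (2.82% of all 33469 promoters), 2 held TTTATG (11.4%), 2 held TATAAA (12.9%) and 3 held AGGTCA, the half-site of nuclear receptors (14.1%), which neither of these had. A match is a string of letters and no evidence of binding. The 12 had a median GC content of 57.2% and 16 CpG pairs, against 51.2% and 5 over all promoters.

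Hoxa2 promoter, chr4:82595693-82595942 (- strand): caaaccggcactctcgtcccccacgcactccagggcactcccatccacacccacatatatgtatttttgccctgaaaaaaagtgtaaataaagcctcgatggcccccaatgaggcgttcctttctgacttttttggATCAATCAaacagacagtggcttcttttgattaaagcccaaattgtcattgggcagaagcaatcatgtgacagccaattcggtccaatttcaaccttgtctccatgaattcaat
Hoxa9 promoter, chr4:82657049-82657298 (- strand): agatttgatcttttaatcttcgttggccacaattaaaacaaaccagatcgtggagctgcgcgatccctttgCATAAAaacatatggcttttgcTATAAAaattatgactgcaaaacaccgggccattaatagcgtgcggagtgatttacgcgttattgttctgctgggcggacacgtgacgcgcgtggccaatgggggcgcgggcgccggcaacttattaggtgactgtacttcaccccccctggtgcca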

How the data were processed

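Each array was hybridised with 2 pools of RNA that the labels describe as renal. The scanner files hold the authors' Feature Extraction output, with intensity values for each channel, per the file headers (version 9.5.1.1, build rn3); the series text names other array and software versions, and the headers were followed. The deposited value table, compared feature by feature, equals the software's log10 ratio, which was converted to log2 and used as an alternative.

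Mean signals were background-corrected with normexp (offset 50) and normalized within arrays by loess in limma 3.58.1 (R 4.3.3); control and outlier spots had weight 0. A probe was kept if the software's flag for well above background was set in Cy3 or Cy5 on 2 or more arrays. The arrays labelled +/+ were tested in a fit of all 6 arrays (3 residual degrees of freedom), mutant pools in a fit of the 4 mutant arrays (2), and ages over 3 kidney pools with pool as a term (2), after Aquantile scaling of the channels, all by limma with Benjamini-Hochberg adjustment over all kept probes and a threshold of 0.05. A ratio is log2 Cy5 over Cy3. Named genes were all Hox probes and, of each companion list, up to 4 called genes with the largest change, plus the genes called between ages. Signal over background limits precision, and the number of arrays does too. The scripts were tested on simulated data. Members, gene lists and markers were chosen with earlier results of these data known. Symbols of 20970 probes were not matched to RefSeq and kept the file's name; 10735 matched by accession, 5577 by symbol and 3730 by synonym. Alternatives were the software's ratio, 2 other filters, median centring, another background correction, an age term, shared spread and leaving out each array or pool. Some genes of the lists and of the Hox probes are not reported here.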

Additional observations from a re-analysis of the deposited data

Results flagged for a closer look

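Hoxb2 stood below 0 in both Cy/+ pools (-0.05 at 3 days and -0.07 at 7 days). In both Cy/Cy pools it stood above 0 (0.02 and 0.05), and it was picked by these opposite signs. Neither genotype was shown to differ from the reference (limma adjusted p = 0.623 in Cy/+ and 0.905 in Cy/Cy). The difference, Cy/Cy minus Cy/+, was 0.0918 on the log2 scale, with an adjusted p of 0.919 by limma, and each of the 4 ratios was smaller than the standard deviation over all probes of its array.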

How the results depend on the processing

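On the arrays labelled +/+, 208 of 220 alternative values of the 22 Hox probes kept their direction and their side of the threshold, 8 lost the call, 4 gained it and none turned. Fitted alone, those 2 arrays gave 6228 calls in place of 13914, and 14 Hox probes called lower in place of 18. Hoxa7 (limma adjusted p = 0.0592), Hoxd1 probe 1 (0.108), Hoxd3 (0.144) and Hoxd4 (0.0958) lost their calls in that fit. Beside the 2427 Cy/+ calls (4 Hox lower), the software's ratio gave 0 and 0, median centring 15405 with 0 Hox lower and 2 higher, an age and slide term 4864 with 7 Hox, shared spread over 6 arrays 13 and 0, and leaving out an array 797 to 3214 with 2 to 5 Hox. Median centring turned Hoxc6 probe 1 to 0.0457 and Hoxa9 probe 2 to 0.067 in Cy/+, and in Cy/Cy turned Hoxa5 to 0.31 and 0.11. For Cy/Cy, where no probe was called, either other filter gave 2 calls, median centring 13278 with 4 Hox higher, the age term 15, and leaving out an array 0 to 3. For Cy/Cy against Cy/+, median centring gave 9 and leaving out an array 0 to 211. Between ages, 2473 calls became 0 with the software's processed signals or without the reference pool, 4199 without the Cy/+ pool (Hox 1 lower, 1 higher) and 49 without the Cy/Cy pool. By the software's looser flag, 26 Hox probes in place of 17 were detected in the Cy5 pool of at least 1 of the arrays labelled +/+ (24 at 3 days and 23 at 7 days). The cause of these changes was not tested. The age and slide term is the replicate block, since the arrays of an age share a slide; it added 3 Hox calls in Cy/+. Dim probes limit the sizes: 6 kept Hox probes were not well above background in the Cy5 pools labelled +/+, so their folds are bounds.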

Other observations

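A further 4 probes, chosen after their values were seen, carry no Hox symbol but are described in the files as similar to Hox proteins. The probe described as Hox-D9 had ratios of -3.31 at 3 days and -2.71 at 7 days on the arrays labelled +/+, a mean of -3.01 ± 0.15 (adjusted p = 3.15e-05 by limma), close to Hoxa9 probe 2. The probe described as Hox 2.2 had -2.34 and -2.18 (mean -2.26 ± 0.11, adjusted p = 2.62e-05), and the probe described as Hox-C11, the Hox11 paralogue of cluster C, had -2.27 and -1.28 (mean -1.78 ± 0.22, adjusted p = 0.00116). The probe described as Hox-D8 had -0.64 and -0.22 (mean -0.43 ± 0.13, adjusted p = 0.0362). All 4 were well above background in the kidney reference of all 6 arrays and higher there than in the Cy5 pools labelled +/+, on the side of the 18 Hox probes called lower.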
